A study of Mus musculus with 29 samples.

Results

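The H2 genes, the mouse major histocompatibility complex (MHC), were followed in the CpG methylation (%DNAm) of lung DNA by taking every 100-cytosine window whose gene label begins with H2-. This gave 87 of the 260686 windows in the table, named for 39 genes, all on chromosome 17 of GRCm38 between 33971607 and 37488774. Class I genes held 56 windows of 28 genes and class II genes 28 windows of 10 genes. The other 3 windows were named for H2-Ke6, an H2 region gene that encodes a hydroxysteroid dehydrogenase and no MHC molecule. Each of the 87 windows had a value in all 29 libraries, so that none was lost to the filter on missing values.

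The libraries were labelled as lung homogenate of female Balb/c mice aged 13 weeks. All were made by enzymatic methyl-seq, in which enzymes and not bisulfite convert unmethylated cytosines. The groups crossed maternal exposure with allergic airway disease (AAD). Sham offspring (n = 7) came from dams given saline and were not challenged with allergen. Sham-OVA offspring (n = 7) came from dams treated in the same way and were sensitised and challenged with ovalbumin (OVA). PM offspring (n = 7) came from dams given fine particulate matter (PM2.5) by the nose before mating and through gestation to weaning, and PM-OVA offspring (n = 8) had that developmental exposure followed by OVA. The labels do not tie libraries to litters, so p-values measure the spread between these libraries. The library labelled Sham replicate 1 had values in 1224 of the 1230 Y chromosome windows, against 29 to 46 in each other library. This is at odds with its label as female, and the cause was not tested. Calls of the named H2 windows in Sham that were lost without this library are given with and without it. Whole lung was measured, so a change in the share of a cell type and a change of methylation within cells cannot be told apart.

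Class I molecules are carried by nearly all nucleated cells and show peptides made inside the cell to CD8 T cells. Class II molecules are made mainly by dendritic cells, macrophages and B cells, take up peptides from engulfed protein and show them to CD4 T cells, which makes them the first step in the response to an inhaled protein such as OVA. Within class I, H2-K and H2-D are the classical, highly variable genes, while the Q, T and M genes hold the less variable non-classical members. Within class II, Ab1 with Aa and Eb1 with Ea form the I-A and I-E receptors, H2-DM loads peptide onto them and H2-O restrains H2-DM. Balb/c mice carry the d haplotype of the H2 region and the reference genome carries the b haplotype of C57BL/6, in which H2-Ea has lost its promoter and is not expressed. Class II promoters hold an X box, bound by the RFX complex, and a Y box, bound by NF-Y.

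The bases upstream of the starts of 6 H2 genes are printed to show the sites at which methylation could be read near a start. All are the 250 bases before the RefSeq start in GRCm38.p6, written 5′ to 3′ on the gene's strand, with each CG in capitals. They lie at chr17:34144999-34145248 (H2-DMb2, plus strand), chr17:34287824-34288073 (H2-Aa, minus strand), chr17:34000334-34000583 (H2-K1, minus strand), chr17:35262844-35263093 (H2-D1, plus strand), chr17:35469839-35470088 (H2-Q10, plus strand) and chr17:36772660-36772909 (H2-M10.5, plus strand). The class II genes H2-DMb2 and H2-Aa are shown because their start windows passed the OVA test, H2-DMb2 in both arms and H2-Aa in PM as deposited, H2-K1, H2-D1 and H2-Q10 because CpG-dense windows at or beside their starts were nearly unmethylated, and H2-M10.5 as a CpG-poor and methylated contrast.
H2-DMb2: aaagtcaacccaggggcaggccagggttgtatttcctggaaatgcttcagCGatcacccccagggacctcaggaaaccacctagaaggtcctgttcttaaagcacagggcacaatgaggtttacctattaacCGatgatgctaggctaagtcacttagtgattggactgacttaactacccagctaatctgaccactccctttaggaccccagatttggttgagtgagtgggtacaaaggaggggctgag
H2-Aa: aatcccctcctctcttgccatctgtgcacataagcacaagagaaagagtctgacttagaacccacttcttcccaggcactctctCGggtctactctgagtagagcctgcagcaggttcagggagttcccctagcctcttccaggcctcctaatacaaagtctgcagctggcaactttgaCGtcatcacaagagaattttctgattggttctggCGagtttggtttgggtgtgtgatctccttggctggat
H2-K1: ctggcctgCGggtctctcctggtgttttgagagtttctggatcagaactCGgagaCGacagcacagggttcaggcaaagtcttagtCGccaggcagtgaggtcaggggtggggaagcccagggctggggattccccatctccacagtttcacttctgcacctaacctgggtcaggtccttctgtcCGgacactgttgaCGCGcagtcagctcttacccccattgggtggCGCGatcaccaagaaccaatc
H2-D1: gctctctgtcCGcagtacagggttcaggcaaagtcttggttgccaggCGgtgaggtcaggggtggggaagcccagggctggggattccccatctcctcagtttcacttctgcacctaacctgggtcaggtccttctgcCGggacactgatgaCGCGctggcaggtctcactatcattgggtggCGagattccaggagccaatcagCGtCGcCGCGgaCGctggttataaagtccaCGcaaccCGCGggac
H2-Q10: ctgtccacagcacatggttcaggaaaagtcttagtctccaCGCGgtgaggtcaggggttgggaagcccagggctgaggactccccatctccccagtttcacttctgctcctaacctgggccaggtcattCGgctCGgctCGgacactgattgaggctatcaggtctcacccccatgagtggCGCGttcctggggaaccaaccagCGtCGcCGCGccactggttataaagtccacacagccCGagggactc
H2-M10.5: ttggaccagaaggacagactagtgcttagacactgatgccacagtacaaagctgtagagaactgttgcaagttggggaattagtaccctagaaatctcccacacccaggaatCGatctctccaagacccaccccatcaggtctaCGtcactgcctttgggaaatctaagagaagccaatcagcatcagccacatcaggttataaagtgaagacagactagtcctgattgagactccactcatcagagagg

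RefSeq promoters of 300 bases (250 before and 50 after the start) were found for 32 of the 45 H2 genes in the annotation, as 35 entries. The 9 class II entries held a median of 3 CG and the 25 class I entries a median of 4, against 7 over all 32851 promoters. H2-D1 and H2-Q10 each held 19 CG, H2-DMb2 and H2-Aa 3 each, and H2-M10.5 held 2. The Y box letters CCAAT were found on either strand in 8 of 9 class II and 22 of 25 class I entries, against 37.4% of all promoters. In H2-DMb2 the match lay on the opposite strand 90 bases before the start, and in H2-Aa likewise 48 bases before it. The X box core CCNAGNNAC was found on either strand in 5 of 9 class II and 7 of 25 class I entries, against 17.3% of all promoters, and the core of the interferon-stimulated response element in 0 and 2, against 3.44%. H2-T23 and H2-T22 held that core. These are matches of letters only, and each motif was counted whether or not it overlapped another.

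The H2 windows ran from unmethylated to heavily methylated, with a median of 55.0% over all libraries against 76.5% for all tested windows of the genome. The 604 windows with other names in the same stretch of chromosome 17 had a median of 63.4%. Among the 87, 12 lay under 5% and 3 over 80%. Levels were read on the b haplotype of the reference, and whether the d haplotype of Balb/c altered them was not tested. The lowest were inside the classical class I genes. The second window of H2-K1, 484 bp of exon, was at 0.0588% ± 0.156 (SD, n = 7) over the Sham libraries, and the next one was at 0.168%. The middle windows of H2-D1 were at 0.177%, which holds the RefSeq start, and 0.361%, while its first window, which holds the GENCODE start, was at 50.6%. Low windows were also found in H2-K2 (2.06%), H2-Q5 (1.22%), H2-Q10 (1.23%), H2-Q6 (2.86%) and H2-Q7 (3.56%), the Qa-2 gene. In the H2-Q5 window Sham replicate 1 was at 4.79% and the other Sham libraries at 0.0631 to 2.07%. H2-Q6 and H2-Q7 are known as close copies, so reads of one could have been counted in the other, which was not tested, and the values of both are uncertain.

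**Figure D1:**
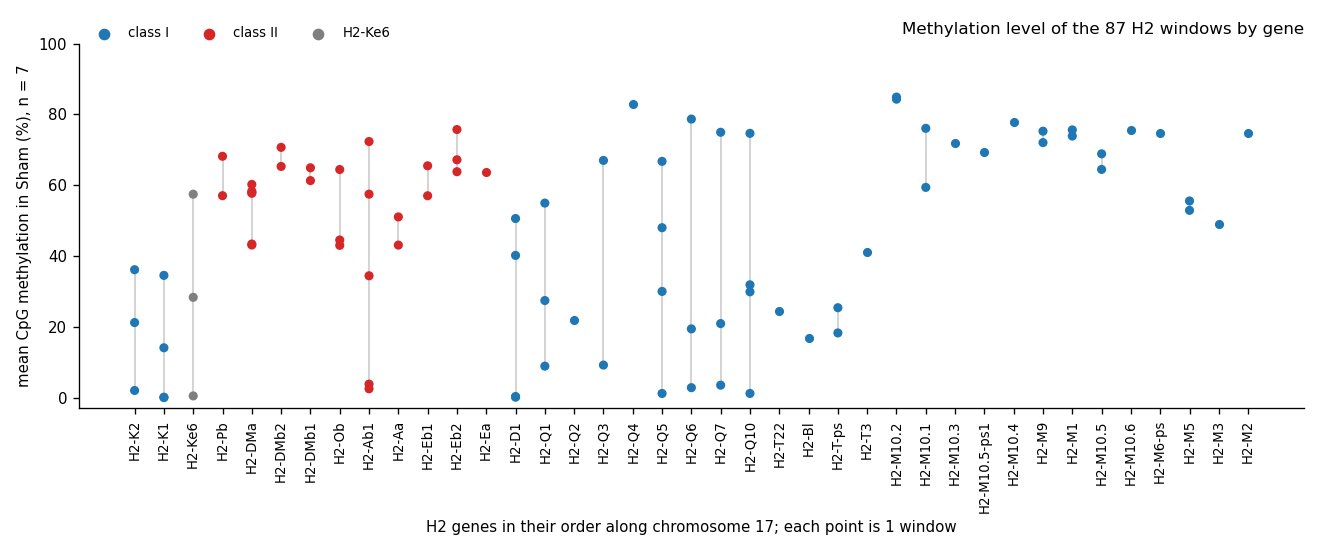
Each point is the mean %DNAm in the 7 Sham libraries of 1 window, and windows of 1 gene are joined by a line, with genes in their order along chromosome 17. Class I genes of the K, D and Q families have windows near 0, the M genes sit between 49.1 and 84.9%, and among class II genes only H2-Ab1 has windows under 5%.

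Among the 28 windows named for class II genes, 2 of H2-Ab1, the beta chain of I-A, were the only ones under 5%. Window 3 (732 bp) was at 2.54% ± 0.527 (SD, n = 7) over the Sham libraries and window 4 (565 bp) at 3.86%, inside the gene and not at its start. The window over the start of H2-Ab1 was at 72.3% ± 1.01 (SD, n = 7). Class II start windows under an H2 name were otherwise at intermediate levels, with 51.1% at H2-Aa, 63.7% at H2-Ea, 65.3% at H2-DMb2, 61.3% at H2-DMb1, 43.0% at H2-Ob, 57.0% at H2-Pb and 67.2% at H2-Eb2. H2-DMa differed, since its annotated start lay in a dense window named for its neighbour Brd2, at 0.857% ± 1.482 (SD, n = 7) over the Sham libraries. RefSeq gives H2-DMa a start in another Brd2 window, at 0.133%, and a second one in the first H2-DMa window, at 43.1%. The highest class II window was the second of H2-Eb2, at 75.7% ± 1.37 (SD, n = 7).

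The 13 M genes were methylated throughout. Their 19 windows lay between 48.4% and 84.6% over all libraries with a median of 73.3%. H2-M10.2, one of a group of M genes known from the vomeronasal organ, held the highest class I window, at 84.9% ± 1.02 (SD, n = 7) in Sham. The lowest was the window of H2-M3, whose molecule presents N-formylated bacterial peptides, at 49.1%. The 5 T and Bl windows had a median of 24.1%, the 21 Q windows 28.2% and the 11 K and D windows 14.3%.

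The low levels sat in CpG-dense windows. A window was drawn over 100 CpG cytosines of both strands, so a short window is a dense one, and the value of a library could rest on only some of them. Of the 16 H2 windows shorter than 1500 bp, 12 were under 5%, with a median of 2.11%, while the 71 longer ones had a median of 59.0%. Across the 87 windows, which are neighbours on 1 chromosome and not independent, Spearman's rho between density and level was -0.682. It was -0.755 over the 56 class I windows and -0.224 over the 28 class II windows. Over the 604 windows with other names it was -0.418. Pearson's r between log density and level was -0.782 over all 87, -0.813 in class I, -0.624 in class II and -0.628 over the other names.

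**Figure D2:**
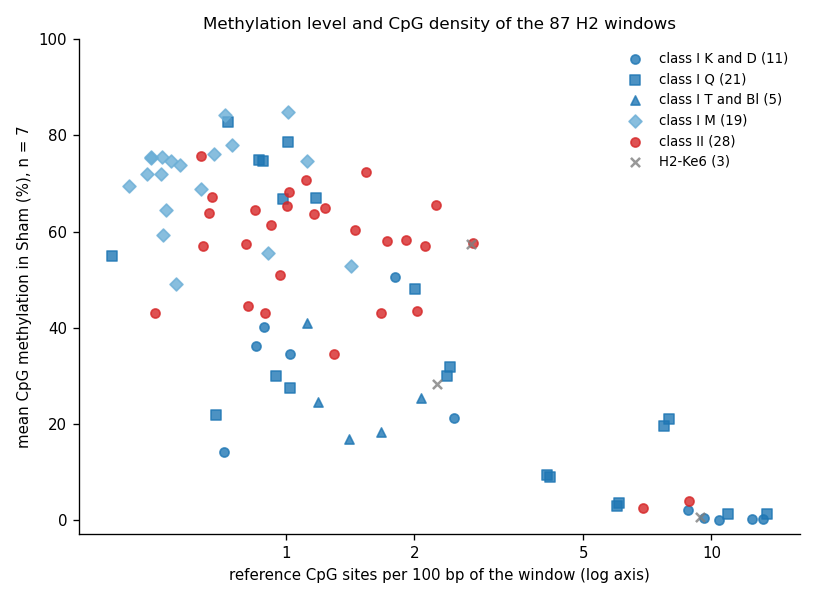
The mean %DNAm of the 7 Sham libraries is plotted against reference CpG sites per 100 bp (log axis) for each of the 87 windows, with symbols for the families. Windows of K, D and Q genes with dense CpGs lie near 0, the M windows form the CpG-poor and methylated end, and class II windows of middle density spread from 34.4 to 75.7%.

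Some reference cytosines in the region were left out of the windows. Every window on chromosome 17 spanned at least 100 reference CpG cytosines, and 8841 of the 10409 outside the H2 stretch spanned exactly 100, so cytosines beyond 100 are taken as ones the window passed over. Over 105 were spanned by 16 of the 87 H2 windows (18.4%), by 31 of the 604 others in the stretch (5.13%) and by 369 of the 10409 outside it (3.55%). The window of H2-Bl spanned 234 and that of H2-Q2 210. The fifth window of H2-Ab1 spanned 141, the first of H2-T-ps 135, and those of H2-Q5 126 and 123. All 19 windows of the M genes spanned exactly 100. Whether the haplotype of Balb/c or repeats caused the gaps was not tested.

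Windows with such gaps were also noisier. The within-group SD had a median of 2.88 percentage points over the 16 windows and 1.497 over the other 71, against 1.49 over all tested windows of the genome. Among windows of at least 1500 bp it was 3.07 (15 windows) against 1.57 (56 windows). H2-Bl had the largest SD of the members, at 6.403 percentage points. Whether this spread hid differences in these windows was not tested.

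**Figure D3:**
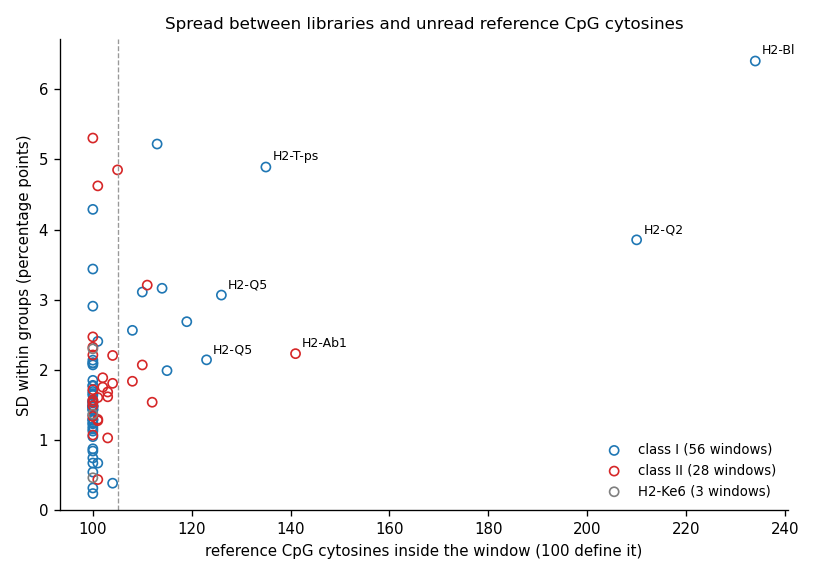
The pooled SD within groups (percentage points) of each of the 87 windows is plotted against the reference CpG cytosines inside it, of which 100 define it, and the dashed line marks 105. The M windows stand at 100, and H2-Bl (234), H2-Q2 (210), H2-Ab1 (141) and H2-T-ps (135) stand to the right.

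The first comparison asked what OVA challenge did to H2 methylation, in Sham and in PM offspring. Each window was fitted on the log2 ratio of methylated to unmethylated percent with limma, and its p was adjusted by Benjamini-Hochberg over all 259167 tested windows. A window passed the test at an adjusted p under 0.05, and was a differentially methylated region (DMR) if it also differed by at least 10 percentage points. Among the 87 windows with an H2 name, all DMRs were in class II genes. In Sham, 2 of 87 H2 windows were DMRs (1 higher, 1 lower) against 0.775% of all windows, of which 0.479% were higher and 0.296% lower. In PM 3 of 87 were DMRs (1 higher, 2 lower) against 0.584%, of which 0.263% were higher and 0.321% lower. They lay in H2-DMa, H2-DMb2 and H2-Ea.

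The H2-Ea window (chr17:34343776-34348073, 4298 bp) covers the annotated start of the gene and the whole 2000 bp before it. These are positions of the reference, whose haplotype has lost the H2-Ea promoter. Whether they hold the promoter of Balb/c was not tested. In Sham the values of the window ran from 60.6 to 66.7% (median 64.4%) and in Sham-OVA from 48.4 to 56.8% (median 52.4%). In PM they ran from 63.6 to 68.9% (median 64.0%) and in PM-OVA from 52.1 to 57.5% (median 53.4%). No OVA library reached the lowest of the unchallenged ones in either arm. %DNAm fell by 11.2 points in Sham (log2 ratio -0.65 ± 0.07 SE, adjusted p = 7.43e-08, limma) and by 11.4 in PM (log2 ratio -0.68 ± 0.07 SE, adjusted p = 1.64e-08, limma). Without Sham replicate 1 the difference in Sham was -11.0 points.

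The H2-DMb2 window over the start of the gene (chr17:34143267-34148263, 4997 bp) moved in the same way, and holds the upstream bases printed above. Sham libraries ran from 62.6 to 69.96% (median 65.0%) and Sham-OVA libraries from 51.3 to 59.5% (median 56.0%). PM libraries ran from 63.6 to 68.3% (median 66.6%) and PM-OVA libraries from 51.4 to 59.9% (median 54.7%). The groups did not overlap in either arm. %DNAm fell by 11.5 points in PM (log2 ratio -0.68 ± 0.07 SE, adjusted p = 6.68e-08, limma). It fell by 9.35 in Sham (log2 ratio -0.56 ± 0.08 SE, adjusted p = 3.16e-06, limma), just short of the 10 points of a DMR, and the difference was -9.8 without Sham replicate 1. The second window of H2-DMb2 differed by -1.61 points in Sham (adjusted p = 0.231, limma) and fell by 3.02 in PM (adjusted p = 0.0138, limma), where it did not pass once each library was centred on the genome (adjusted p = 0.180, limma).

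The sixth and last window of H2-DMa (chr17:34137960-34139794, 1835 bp) was the one H2 DMR that gained methylation. It lies at the 3′ end of the gene, and its 1142 exonic bp are all untranslated. Sham libraries ran from 51.8 to 68.1% (median 56.6%) and Sham-OVA libraries from 56.4 to 75.2% (median 70.5%). The groups overlapped through the highest Sham library (68.1%, the next at 57.7%) and the lowest Sham-OVA library (56.4%, the next at 67.0%). PM libraries ran from 54.4 to 61.7% (median 58.1%) and PM-OVA libraries from 65.7 to 76.0% (median 70.9%), with no overlap. %DNAm rose by 11.5 points in Sham (log2 ratio 0.72 ± 0.14 SE, adjusted p = 0.000342, limma) and by 12.0 in PM (log2 ratio 0.75 ± 0.14 SE, adjusted p = 0.000105, limma). Without Sham replicate 1 the rise in Sham was 11.5 points (adjusted p = 0.000738, limma).

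The window next to it moved the opposite way. The fifth window of H2-DMa (chr17:34135430-34137893) averaged 43.4% ± 0.604 (SD, n = 7) over the Sham and 39.3% ± 1.59 (SD, n = 7) over the Sham-OVA libraries, with no overlap between the groups, and fell by 4.10 points (adjusted p = 0.000222, limma). It fell by 4.07 in PM (adjusted p = 0.000118, limma). Of windows 1 to 4, window 3 rose in PM by 3.93 points (adjusted p = 0.00894, limma) and differed by 2.47 in Sham (adjusted p = 0.117, limma), and the others did not pass in either arm.

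**Figure D4:**
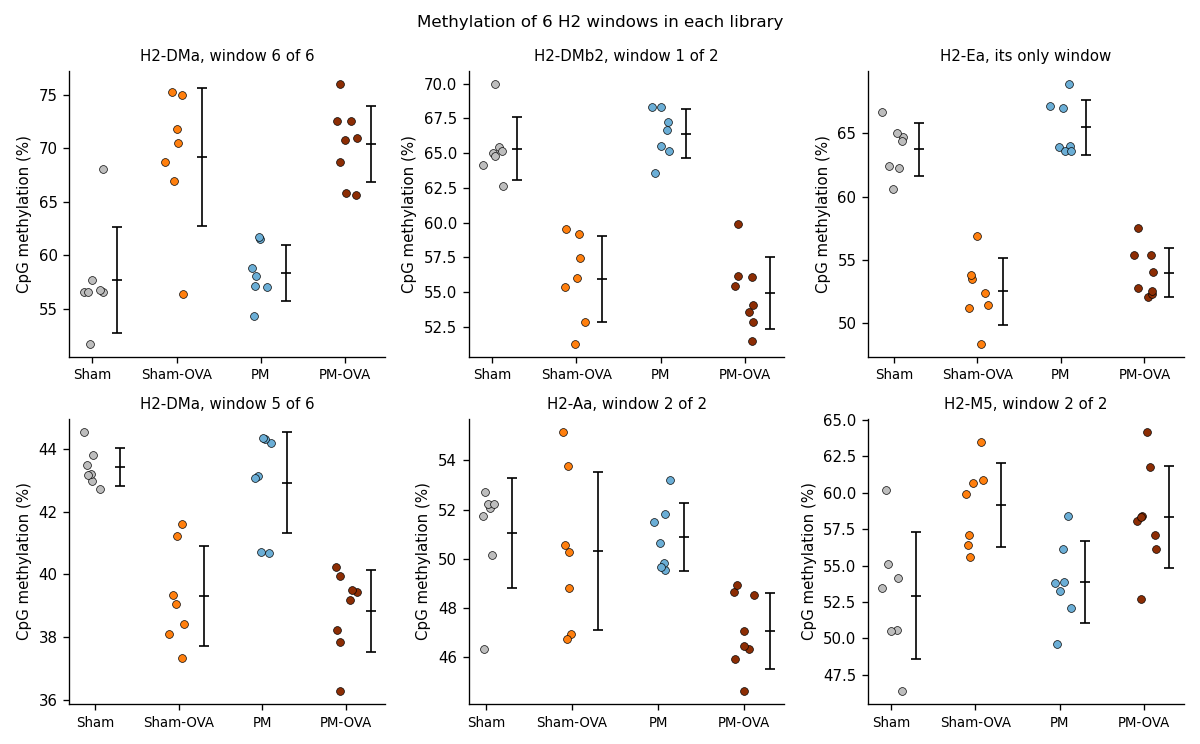
Each point is the %DNAm of 1 library in 1 of 6 H2 windows, by group, with the mean and SD beside the points, and the vertical axes do not start at 0. OVA libraries lie below the unchallenged ones in H2-DMb2, H2-Ea and the fifth H2-DMa window, above most of them in the last H2-DMa window, where the highest Sham and the lowest Sham-OVA library cross over, and overlap with them in H2-Aa in Sham and in H2-M5.

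Over all class II windows, 7 of 28 passed the test in Sham, with 2 higher and 5 lower, against 35.6% of all tested windows, of which 13.3% were higher and 22.3% lower. In PM 10 of 28 passed, with 2 higher and 8 lower, against 44.1% of all windows, 9.26% higher and 34.8% lower. The shares of class II windows (25.0% and 35.7%) were below these background shares. Their median difference was -1.14 points in both arms, against -0.414 over all windows in Sham and -1.03 in PM. With each library centred on the genome, 6 passed in Sham (2 higher, 4 lower) and 8 in PM (4 higher, 4 lower), and the median was -0.748 in Sham and -0.162 in PM.

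The A and E chain genes accounted for 13 class II windows, of which 3 in Sham (23.1%) and 5 in PM (38.5%) passed, all lower, against the 22.3% and 34.8% of all windows that passed as lower. With centred libraries 2 passed in Sham, both lower, and 3 in PM, of which the second H2-Eb2 window was higher (1.335 points, adjusted p = 0.0406, limma). H2-Ab1 fell in its second window by 2.45 points in Sham (34.4% to 32.0%, adjusted p = 0.00443, limma) and by 2.40 in PM (adjusted p = 0.00301, limma). Its start window fell in PM by 2.42 (adjusted p = 0.00697, limma) and differed by -1.24 in Sham (adjusted p = 0.194, limma). Its near-unmethylated window 3 fell by 0.849 in PM, where PM libraries averaged 2.52% ± 0.500 (SD, n = 7) and PM-OVA libraries 1.67% ± 0.425 (SD, n = 8; adjusted p = 0.00207, limma). The start window of H2-Aa, the alpha chain of I-A, ran from 49.5 to 53.2% (median 50.6%) in PM and from 44.6 to 48.9% (median 46.8%) in PM-OVA, without overlap, and fell by 3.82 (adjusted p = 0.00763, limma). In Sham it differed by -0.735 (adjusted p = 0.658, limma). The difference of window 3 was 0.1303 points once each library was centred on the genome, opposite in sign to -0.849, while its log2 ratio stayed negative (adjusted p = 0.0183, limma). Neither H2-Aa nor the start and second windows of H2-Ab1 passed in PM on that scale, with adjusted p of 0.143, 0.286 and 0.257. The start window of H2-Eb2 fell in Sham by 2.53 (adjusted p = 0.0356, limma) and did not pass without Sham replicate 1 (-2.07, adjusted p = 0.0939, limma), with centred libraries (adjusted p = 0.0948, limma) or in the fit of Sham and Sham-OVA alone (adjusted p = 0.058, limma). Neither window of H2-Eb1 passed in either arm.

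Among the 15 DM, O and P windows, 4 passed in Sham (26.7%) and 5 in PM (33.3%), against 35.6% and 44.1% of all windows. Beside the DM windows above, the second window of H2-Ob, the beta chain of the H2-DM inhibitor, rose by 2.71 points in Sham (adjusted p = 0.0218, limma) and differed by 1.79 in PM (adjusted p = 0.102, limma), where it passed as higher with centred libraries (adjusted p = 0.000968, limma). The start windows of H2-DMb1, H2-Ob and H2-Pb passed in neither arm with all libraries included. H2-DMb1 averaged 61.3% ± 3.42 (SD, n = 7) over the Sham and 64.8% ± 2.45 (SD, n = 7) over the Sham-OVA libraries (adjusted p = 0.106, limma; without Sham replicate 4 it passed, at 0.0228), opposite in sign to its neighbour H2-DMb2.

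None of the 56 windows named for a class I gene was a DMR, although a window over H2-T24 with a neighbour's name was one in PM. In Sham 9 of 56 passed the test, with 3 higher and 6 lower, and in PM 18 of 56, with 3 higher and 15 lower (16.1% and 32.1%, against the 35.6% and 44.1% of all windows). Without Sham replicate 1, 7 passed in Sham. The count in PM depended on the scale of the libraries: with each library centred, 8 of 56 passed, 5 higher and 3 lower, and the median class I difference went from -0.742 to 0.238 points. Over all windows centring changed the lower share of those that passed from 79.0% to 49.7% in PM and from 62.7% to 49.3% in Sham. For the 87 H2 windows it went from 82.1% to 41.2% in PM, with 17 passing in place of 28, and from 64.7% to 46.7% in Sham, with 15 in place of 17. With libraries as deposited but without Sham replicate 1, 14 of the 87 passed in Sham.

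In the M family 11 of 19 windows passed in PM (57.9%, against 44.1% of all windows), 9 lower and 2 higher, and 4 in Sham (21.1%, against 35.6%), with 3 lower and 1 higher. After centring, 5 passed in PM (26.3%, against 37.6%), 3 lower and 2 higher, and 4 in Sham (21.1%, against 36.1%), 2 lower and 2 higher. H2-M10.5 fell in PM by 4.04 points in its start window (64.9% to 60.9%, adjusted p = 0.00034, limma), the window that holds the upstream bases printed above, and by 3.02 in its second (adjusted p = 0.00075, limma). In Sham these windows differed by -1.19 (adjusted p = 0.291, limma) and -2.36 (adjusted p = 0.00961, limma). The start window of H2-M9 averaged 73.4% ± 0.972 (SD, n = 7) over the PM and 69.5% ± 1.45 (SD, n = 8) over the PM-OVA libraries, a fall (adjusted p = 0.000474, limma) and differed by -0.426 in Sham (adjusted p = 0.741, limma). H2-M10.2 fell in its first window by 2.84 in Sham (adjusted p = 0.000636, limma) and by 1.91 in PM (adjusted p = 0.0103, limma). H2-M10.5-ps1, a pseudogene, fell by 3.20 in PM (adjusted p = 0.00196, limma) and H2-M10.4 by 2.04 (adjusted p = 0.0349, limma). In Sham H2-M10.5-ps1 differed by -1.21 (adjusted p = 0.263, limma) and H2-M10.4 by 0.725 (adjusted p = 0.498, limma). With centred libraries H2-M10.4 (adjusted p = 0.305, limma) and H2-M10.2 (0.242) no longer passed in PM, nor did the second H2-M10.5 window in Sham (0.0602) or PM (0.087). H2-M10.4 was also lost in the fit of PM and PM-OVA alone (adjusted p = 0.0643, limma).

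H2-M5 was the M gene that rose. Its start window ran from 46.4 to 60.2% (median 53.5%) in Sham and from 55.6 to 63.5% (median 59.9%) in Sham-OVA, with overlap, and rose by 6.24 points (adjusted p = 0.00686, limma). In PM it rose by 4.46 (adjusted p = 0.0343, limma), a call lost without PM replicate 2, 3 or 6 or PM-OVA replicate 5 or 7 (adjusted p up to 0.0855, limma). Its other window rose by 3.96 in PM (adjusted p = 0.00469, limma), where PM ran from 50.2 to 56.7% and PM-OVA from 56.9 to 60.1%, and differed by 2.82 in Sham (adjusted p = 0.0512, limma).

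No window of the classical genes H2-K1 and H2-D1 passed in either arm on the log2 scale with all libraries as deposited. The fourth H2-D1 window differed by -1.76 points in Sham (adjusted p = 0.0758, limma) and passed there on the percent scale (adjusted p = 0.0454, limma). Of the 11 K and D windows, 1 passed in each arm (9.09%, against 35.6% of all windows in Sham and 44.1% in PM), and both were in H2-K2, which is annotated as a transcribed pseudogene. The first window of H2-K2 rose by 4.58 points in Sham, with Sham libraries at 36.2% ± 1.69 (SD, n = 7) and Sham-OVA libraries at 40.7% ± 2.85 (SD, n = 7; adjusted p = 0.00821, limma) and differed by 2.54 points in PM (adjusted p = 0.109, limma). The near-unmethylated second window of H2-K2 fell by 0.844 points in PM (adjusted p = 0.0405, limma). With centred libraries the fall did not pass (adjusted p = 0.120, limma) and the first H2-K2 window rose in PM by 3.515 (adjusted p = 0.00581, limma). The start window of H2-K1 differed by 0.772 points between Sham libraries at 14.1% ± 1.56 (SD, n = 7) and Sham-OVA libraries at 14.9% ± 1.33 (SD, n = 7; adjusted p = 0.590, limma). It differed by -1.73 between PM libraries at 15.1% ± 3.00 (SD, n = 7) and PM-OVA libraries at 13.3% ± 1.63 (SD, n = 8; adjusted p = 0.203, limma), and by -2.656 without PM replicate 1, where it passed (adjusted p = 0.0145, limma). The first window of H2-D1 differed by 1.56 in Sham (adjusted p = 0.108, limma) and 0.871 in PM (adjusted p = 0.349, limma), and passed as higher in both once the libraries were centred (adjusted p = 0.0187 and 0.00625, limma). The second window of H2-K1 had 5 of 8 PM-OVA libraries at 0 and a highest value of 3.13%, and did not pass (adjusted p = 0.104, limma).

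Of the 21 Q windows, 4 passed in Sham (19.0%, 1 higher) and 6 in PM (28.6%, 1 higher), against 35.6% and 44.1% of all windows. With centred libraries 2 passed in Sham (1 higher) and 1 in PM, which was higher, against 36.1% and 37.6% of all windows, and without Sham replicate 1 there were 2 in Sham. H2-Q10 is a class I molecule secreted by the liver. Its start window, which holds the upstream bases printed above, fell by 2.18 points in Sham (31.9% to 29.7%, adjusted p = 0.0386, limma) and by 2.87 in PM (adjusted p = 0.00495, limma). The dense exonic window after it rose by 1.36 in Sham (1.23% to 2.59%, adjusted p = 0.0124, limma) and by 1.09 in PM (adjusted p = 0.0247, limma). The start window no longer passed in either arm with centred libraries (adjusted p = 0.164 and 0.204, limma), nor in Sham without Sham replicate 1 (adjusted p = 0.0746, limma), while the dense window passed in both. The dense window did not pass in PM on the percent scale (adjusted p = 0.0566, limma) or without PM replicate 2 (adjusted p = 0.0615, limma). The start window of H2-Q7 fell in Sham by 0.709 (adjusted p = 0.0450, limma), by 0.657 without Sham replicate 1 (adjusted p = 0.0818, limma). This H2-Q7 call was also lost with centred libraries (adjusted p = 0.0903, limma), on the percent scale (0.129) and with a pseudocount of 5 points (0.0583). The window of H2-Q4 fell by 2.89 in PM (adjusted p = 0.00478, limma) and did not pass with centred libraries (adjusted p = 0.0713, limma). None of the 5 T and Bl windows passed in either arm. Only 1 of the 16 windows with over 105 reference CpG cytosines passed in Sham (H2-K2) and 0 in PM, against 16 and 28 of the other 71.

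Across the 87 windows 35 passed in at least 1 arm, against 52.3% of all tested windows, and 10 in both, against 27.3%. Each of the 10 had the same direction in both arms, as had 99.9% of all windows that passed in both. The groups did not overlap for 3 of the 87 windows in Sham, against 8.58% of all windows, and for 6 in PM, against 12.0%. The 3 were the fifth H2-DMa window, H2-DMb2 and H2-Ea, and in PM the last H2-DMa window, the start of H2-Aa and the first H2-M5 window were added. At the level of a family, the 13 A and E chain windows averaged 50.6% ± 0.510 (SD, n = 7) over the Sham and 48.8% ± 0.628 (SD, n = 7) over the Sham-OVA libraries. They averaged 51.2% ± 0.684 (SD, n = 7) over the PM and 48.8% ± 0.659 (SD, n = 8) over the PM-OVA libraries. No library of either OVA group reached the lowest of its unchallenged group, but H2-Ea carried much of this. Over the 12 windows without H2-Ea the means were 49.5%, 48.5%, 50.05% and 48.3% in the same order of groups, and the groups overlapped in both arms. The 11 K and D windows averaged 18.2% ± 0.295 (SD, n = 7), 18.5% ± 0.331 (SD, n = 7), 18.4% ± 0.707 (SD, n = 7) and 18.4% ± 0.438 (SD, n = 8) in the same order, and overlapped.

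**Figure D5:**
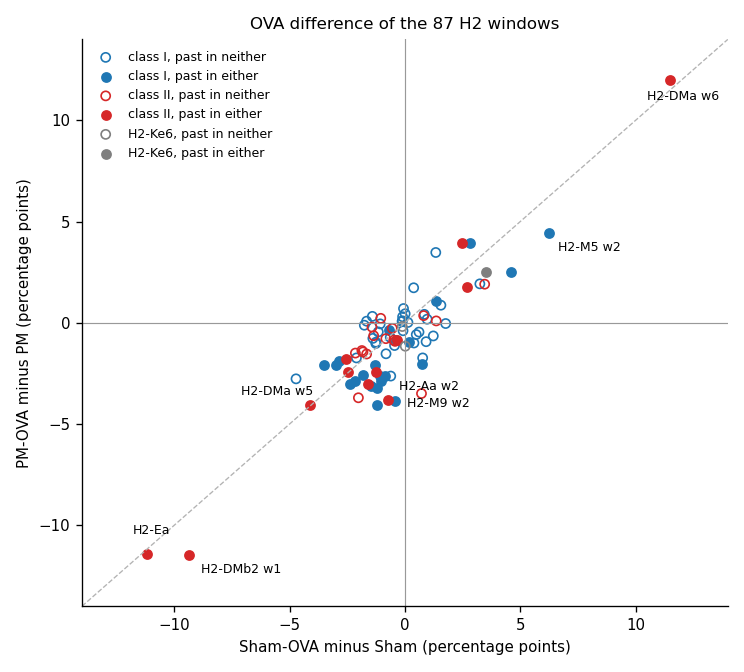
For each of the 87 windows the Sham-OVA minus Sham difference is plotted against the PM-OVA minus PM difference (percentage points), with the dashed line marking equal differences. The last H2-DMa window stands alone at the upper right (11.5 and 12.0), H2-Ea and H2-DMb2 at the lower left, and the other windows lie between -4.72 and 6.24 points in both arms.

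The second comparison asked whether maternal PM2.5 exposure altered H2 methylation with or without OVA, and whether it altered the response to OVA. No H2 window passed in PM against Sham, in PM-OVA against Sham-OVA or in the interaction by limma, as was the case for all windows (0% passed in each). At an unadjusted p under 0.05 there were 2, 6 and 3 of the 87 H2 windows, against 5.79%, 5.96% and 7.4% of all windows. The smallest adjusted p of an interaction was that of H2-M9 (0.576, limma), whose fall with OVA was 3.44 points larger in PM than in Sham. The interaction of the H2-Aa start window was -3.08 points (adjusted p = 0.695, limma), that of H2-DMb2 -2.11 (adjusted p = 0.806, limma), that of H2-Ea -0.255 (adjusted p = 0.970, limma) and that of the last H2-DMa window 0.505 (adjusted p = 0.981, limma). The calls made in PM and not in Sham are therefore not shown to differ between the arms.

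Genes that serve the H2 molecules were read beside the 35.6% (Sham) and 44.1% (PM) of all windows that passed. Of 42 windows of class I loading genes, 15 passed in Sham (2 higher) and 19 in PM (4 higher), a share of 35.7% and 45.2%, near that background. In the same stretch of chromosome 17 as H2-DMb1 and H2-Ob, Tap1, a subunit of the peptide transporter, held a DMR at chr17:34194883-34197510, with differences of -13.7 points in Sham and -14.3 in PM. Psmb8, an immunoproteasome subunit, held the other DMRs. Of 35 windows of class II loading genes, 15 passed in Sham (42.9%, 6 higher) and 17 in PM (48.6%, 6 higher). Ctss, the protease that trims the invariant chain, had a window with differences of -10.8 points in Sham and -9.31 in PM, and Cd83, which keeps class II at the cell surface, one with -10.7 and -12.3. Cd74, the invariant chain, had one with -7.84 and -10.05. All 6 passed the test. In each arm DMRs were 2 of 42 class I and 2 of 35 class II loading windows. Of all windows, 0.775% were DMRs in Sham and 0.584% in PM. The median difference of class II loading windows was 0.536 points in Sham and -0.946 in PM. That of class I loading windows was -0.770 and -0.713. Of 85 windows of genes that control MHC transcription, 34 (40.0%) passed in each arm and none was a DMR, and of 16 windows of class I-like genes elsewhere 5 (31.2%) and 9 (56.2%) passed.

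Windows of cell type markers were counted in the same way, against 35.6% of all windows in Sham (22.3% lower) and 44.1% in PM (34.8% lower). Of 16 windows of 5 eosinophil genes, 9 in Sham (56.2%) and 10 in PM (62.5%) passed, all lower, and their mean level ran from 68.6 to 70.7% in Sham libraries and from 65.5 to 67.6% in Sham-OVA libraries. Of 27 T cell windows, 14 (51.9%) passed in each arm, 10 lower. Of 58 dendritic cell and macrophage windows, 30 (51.7%) passed in each arm, 19 lower in Sham and 24 lower in PM, and of 58 B cell windows 30 (51.7%) and 31 (53.4%) passed, 14 and 18 lower. Of 74 endothelial windows 39 (52.7%) passed in Sham, 34 of them higher, and 41 (55.4%) in PM, 32 higher. Of 19 epithelial windows 9 (47.4%) passed in Sham, 8 higher, and 4 (21.1%) in PM, all higher. Epithelial genes had the lowest mean of these lists in Sham, at 41.2% ± 0.821 (SD, n = 7), while endothelial genes were at 67.8% ± 0.903 (SD, n = 7). The part of these cell types in the H2 results was not tested.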

How the data were processed

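Genomic DNA of lung from 29 mice was converted enzymatically and sequenced as paired ends. Per the labels, reads were handled with Trim Galore and DRAGEN against GRCm38. The deposited values are percent methylation per window, which the authors made in SeqMonk by walking over 100 CpG cytosines at a time and naming each window for a gene. The paper reports high coverage of the genome in each replicate. No read counts were used here, so the depth of each window is unknown and no counting interval is given. Libraries had values in 258952 to 260135 of 260686 windows. The authors' values were used as deposited, with 0 columns of other series.

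H2 windows were found by their gene label and placed on GENCODE M21 genes of the same build, and CpG cytosines were counted in the GRCm38.p6 sequence. Windows with at least 3 values per group (259167) were fitted with limma 3.58.1 in R 4.3.3 on log2((percent + 1)/(101 - percent)) with 4 group means over all 29 libraries. Differences are in percentage points. The fit was tested on simulated data. Dixon's gap was checked in the named windows. The text names H2 DMRs and the 5 windows of each class with the smallest p per OVA contrast. It names the smallest p of the other contrasts and the lowest and highest Sham level per class. Start windows under the gene's own name are given for class II genes, H2-K1, H2-D1, H2-Q7 and H2-Q10. The rule also listed H2-T23, H2-M3 and H2-Q4, whose starts lay in windows named for neighbours. Other windows named (H2-DMb2 window 2, H2-DMa window 3, the second H2-Ob, second H2-K2 and H2-Q4 windows, low-level windows and those with most extra cytosines) were chosen after their values were seen. The members and gene lists were chosen with earlier results of these data known. Alternatives were another pseudocount, the percent scale, complete windows, centred libraries, 2-group fits, a replicate block, each library left out, other DMR limits and windows over 1 gene. Columns of the authors' own comparisons were not used. Replicate numbers did not pair samples.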

Additional observations from a re-analysis of the deposited data

Results flagged for a closer look

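A library stood far from the rest of its group in 10 of the 120 groups checked (30 H2 windows in 4 groups each), where chance flags about 1 in 20. Sham replicate 2 was apart in 3 of them. It had 68.11% in the last H2-DMa window, with the next library at 57.71%. It had 46.34% at the start of H2-Aa, with the next at 50.16%, and 0.4115% in the second H2-K1 window, where the other Sham libraries were at 0. In that same window PM replicate 5 had 0.2703% and the other PM libraries 0. PM replicate 2 had 69.19% in the start window of H2-Pb, with the next at 57.54%, and 1.505% in H2-Ab1 window 3, with the next at 2.43%. PM replicate 5 had 63.4% in the start window of H2-Eb2, with the next at 66.77%, and that window passed the test in PM without it. Sham replicate 6 had 69.96% in the start window of H2-DMb2, with the next at 65.45%. Sham-OVA replicate 7 had 41.31% in the fourth H2-D1 window, with the next at 38.66%, and PM replicate 3 had 50.25% in the first H2-M5 window, with the next at 53.96%. The cause of these values was not tested.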

How the results depend on the processing

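The H2 DMRs (2 in Sham, 3 in PM) were found in these numbers under every alternative run except other DMR limits. With a minimum of 5 points there were 4 in Sham, and at an adjusted p under 1e-06 there was 1 in Sham and 2 in PM. The class I count in PM went from 18 to 8 with centred libraries, while the class I count in Sham and both class II counts stayed within 1.5 times their values. Directions moved more: class I in Sham went from 3 higher and 6 lower to 5 and 3, and class II in PM from 2 and 8 to 4 and 4. Centring in PM also took the counts of all H2 windows from 28 to 17, of M from 11 to 5, of Q from 6 to 1 and of the A and E chains from 5 to 3, that of Q in Sham from 4 to 2, and that of K and D from 1 to 2 in each arm (in PM from 1 lower to 2 higher). Leaving out each library in turn gave 7 to 11 class I windows in Sham (9 with all), 13 to 18 in PM (18), 6 to 8 class II windows in Sham (7) and 10 to 11 in PM (10), and 0 in the maternal contrasts and the interaction. Same-numbered libraries did not deviate together (42 pairs, correlations of -0.0409 to 0.104). With a replicate block the class I counts were 9 and 15, the class II counts 7 and 10, and the H2-M5 start window no longer passed in PM (adjusted p = 0.057, limma). Of the named windows H2-Ab1 window 3 in PM reversed in points with centred libraries (0.1303, adjusted p = 0.0183, limma), though not in its log2 ratio. A change of sign between values that both missed the threshold was not counted. Outside the fits without 1 library, 334 of their values kept their side of the threshold, 17 lost a call (11 with centred libraries) and 8 gained one (5 with centred libraries). Of the fits without 1 library, 1692 kept it, 36 lost and 12 gained a call. The 36 were the start windows of H2-Eb2 and H2-Q10 in Sham (8 fits each), H2-Q7 in Sham and H2-M10.4 in PM (7 each), H2-M5 in PM (5) and the dense H2-Q10 window in PM (1). The 12 were H2-M5 window 1 in Sham (5 fits), H2-D1 window 4 in Sham (2) and, in 1 fit each, H2-DMb1 window 1 and H2-M10.2 window 2 in Sham and H2-K2 window 1, H2-K1 window 4 and H2-Eb2 window 1 in PM. Windows over no other gene had a median class II difference of -0.935 in Sham and -1.40 in PM.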

Other observations

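Of the 45 annotated H2 genes, 6 had no window of their own name, because a neighbour's name was given to the windows over them. Windows named A930015D03Rik covered H2-T24 and H2-T23. The window over the 3′ end of H2-T24 (chr17:36002343-36006252) averaged 82.3% ± 1.15 (SD, n = 7) over the Sham and 73.2% ± 2.27 (SD, n = 7) over the Sham-OVA libraries, a difference of -9.06 points (adjusted p = 4.65e-09, limma). It averaged 83.0% ± 0.920 (SD, n = 7) over the PM and 72.2% ± 1.484 (SD, n = 8) over the PM-OVA libraries, a difference of -10.8 points (adjusted p = 2.9e-10, limma). The window over the start of H2-T24 fell by 6.10 points in Sham (adjusted p = 1.1e-06, limma) and by 6.91 in PM (adjusted p = 6.85e-08, limma). These class I windows are not among the 56 counted above, and the one at the 3′ end is a DMR in PM. H2-T23, the Qa-1 gene, had an unmethylated window of 752 bp at 0.896% in Sham, which did not pass in either arm. The window over its start was at 65.9% in Sham and that over its 3′ end at 50.8%, and neither passed.

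The near-unmethylated Brd2 windows over the GENCODE and RefSeq starts of H2-DMa passed in Sham only. They differed there by -0.822 (adjusted p = 0.0489, limma) and 0.346 points (adjusted p = 0.0246, limma). Windows named BC051537 covered H2-Oa, the alpha chain of the H2-DM inhibitor, and H2-Pa. The window over the start of H2-Pa rose by 3.21 points in Sham (adjusted p = 0.023, limma) and differed by 1.98 in PM (adjusted p = 0.133, limma). The second window over H2-Oa fell by 6.22 points between Sham libraries at 69.3% ± 3.01 (SD, n = 7) and Sham-OVA libraries at 63.1% ± 4.54 (SD, n = 7; adjusted p = 0.00517, limma) and fell by 5.32 points in PM (adjusted p = 0.0100, limma), while the window over its start did not pass in either arm. The start of H2-Eb1, in a window named Gm20513, differed by -0.894 points in Sham (adjusted p = 0.754, limma) and fell by 4.72 in PM (adjusted p = 0.0441, limma). The start of H2-Q4, in a window named Gm11131, was unmethylated, at 0.337% in Sham.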
